A study of Mus musculus with 6 samples.

Results

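The Hox cluster genes encode homeodomain transcription factors and lie in 4 clusters, Hoxa, Hoxb, Hoxc and Hoxd. They were taken as every gene of the deposited matrices whose symbol is Hox, a cluster letter and a position number, which gave 39 of 50559 genes: 11 Hoxa, 10 Hoxb, 9 Hoxc and 9 Hoxd genes. Within a cluster the genes are numbered along the chromosome, and in the embryo low numbers are switched on early and towards the head while high numbers are switched on later and towards the tail. Pbx and Meis proteins bind DNA together with Hox proteins. In the mouse Müllerian duct, which gives rise to the uterine tube, uterus and upper vagina, Hoxa9 is known for expression in the prospective uterine tube, Hoxa10 and Hoxa11 in the prospective uterus, and Hoxa13 towards the vagina, and loss of Hoxa10 in the mouse gives the upper uterus a tube-like form.

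The study measured single-cell RNA of uterine tubes from groups of adult C57BL6 female mice in estrus, with each tube divided into a proximal section, towards the uterus, and a distal section, towards the ovary. The tissue of a section was combined within a group of mice, so a library holds the cells of several animals. There were 3 proximal libraries (numbered 2, 3 and 4) and 3 distal libraries (numbered 1, 2 and 3), all from 1 strain, made with the 10x Genomics 3' version 2 chemistry. Each count is a unique molecular identifier (UMI), 1 captured RNA molecule.

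The proximal libraries were much smaller, with 325 to 1133 cells kept against 4115 to 6652 in the distal libraries. Their total counts ran from 426707 to 5633091 UMIs, against 24175396 to 32488145 UMIs in the distal libraries. Of 18466 kept cells, 17300 fell into 5 classes named from marker genes, namely non-ciliated epithelium, ciliated epithelium, fibroblasts, smooth muscle and blood endothelium. Every class carried its own defining markers in both regions, except that proximal 2 held no smooth muscle cell and 2 blood endothelial cells and proximal 3 held 7 ciliated cells, so these libraries did not enter those classes. A total of 175 kept barcodes occurred in more than 1 library. Levels are given in CPM, the UMIs of a gene scaled to the same total of UMIs in each class and library. The chemistry counts 1 end of a transcript, so the values carry no length correction, and reads of overlapping or antisense Hox transcripts, such as those that join Hoxa9 and Hoxa10, could not be told apart.

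RefSeq promoter sequences on the GRCm38.p6 build were at hand for 22 of the 39 genes, in 24 promoters. The 250 bases before the start are printed for Hoxa7, Hoxa9 and Hoxa10, neighbours on chromosome 6 whose levels in fibroblasts parted at the boundary between positions 7 and 9, and for Hoxb8 on chromosome 11, whose epithelial level lay apart between the regions. Each is read 5′ to 3′ on the strand of its gene, and capitals mark a match to TATAAA, which here lies on the opposite strand and so reads TTTATA.
Hoxa7, chr6:52218574-52218823, minus strand: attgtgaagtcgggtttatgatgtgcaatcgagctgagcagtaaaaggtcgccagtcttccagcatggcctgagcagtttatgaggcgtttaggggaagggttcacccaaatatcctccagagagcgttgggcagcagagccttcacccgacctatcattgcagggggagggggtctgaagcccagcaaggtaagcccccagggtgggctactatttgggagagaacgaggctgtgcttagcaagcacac
Hoxa9, chr6:52227371-52227620, minus strand: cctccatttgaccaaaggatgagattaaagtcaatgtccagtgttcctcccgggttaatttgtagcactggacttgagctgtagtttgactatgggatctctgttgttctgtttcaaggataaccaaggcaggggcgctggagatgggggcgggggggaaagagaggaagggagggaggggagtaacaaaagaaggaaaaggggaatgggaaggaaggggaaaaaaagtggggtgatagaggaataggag
Hoxa10, upstream start, chr6:52240855-52241104, minus strand: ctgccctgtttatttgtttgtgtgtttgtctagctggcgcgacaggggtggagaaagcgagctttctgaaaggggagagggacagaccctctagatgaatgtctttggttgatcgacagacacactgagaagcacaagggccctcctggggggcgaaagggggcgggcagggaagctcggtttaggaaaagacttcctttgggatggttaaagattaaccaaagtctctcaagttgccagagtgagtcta
Hoxa10, downstream start, chr6:52234940-52235189, minus strand: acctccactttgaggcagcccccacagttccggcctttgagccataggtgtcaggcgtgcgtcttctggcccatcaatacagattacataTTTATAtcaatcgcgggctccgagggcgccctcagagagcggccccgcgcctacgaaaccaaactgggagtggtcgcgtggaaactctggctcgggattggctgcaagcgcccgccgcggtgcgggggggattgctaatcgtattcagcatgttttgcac
Hoxb8, chr11:96281655-96281904, plus strand: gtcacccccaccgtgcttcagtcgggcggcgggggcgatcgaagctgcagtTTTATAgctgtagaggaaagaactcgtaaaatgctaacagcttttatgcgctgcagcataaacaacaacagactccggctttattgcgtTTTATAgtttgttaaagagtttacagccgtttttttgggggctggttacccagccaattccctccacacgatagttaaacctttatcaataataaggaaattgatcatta

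These windows were searched on both strands for TATAAA, for TGATTNAT (a composite site of Pbx and Hox proteins), for AGGTCA (a half-site of nuclear receptors such as those for retinoic acid) and for TAATTA (a core that many homeodomains bind). TATAAA was found in 4 of the 24 Hox windows, and in 12.4% of 32851 promoter windows of the same length. TGATTNAT was in 2 of the 24 against 2.82% of all windows, AGGTCA in 6 of 24 against 14%, and TAATTA in 2 of 24 against 4.84%. The windows of Hoxa7 and Hoxa9 and that of the upstream start of Hoxa10 held none of the 4, the downstream start of Hoxa10 held 1 TATAAA match, and Hoxb8 held 2. Hoxa9's window had 3 CpG dinucleotides, those of Hoxa7 and the upstream start of Hoxa10 had 7 each, Hoxb8's had 12 and the downstream start of Hoxa10 had 20. A match is a run of letters and was not tested for binding.

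Hox RNA was found in each of the 5 classes, in 13726 of their 17300 cells. Of the 39 genes, 32 had at least 1 UMI among all kept cells, and 7 had none: Hoxa13, Hoxc11, Hoxc12, Hoxc13, Hoxd1, Hoxd12 and Hoxd13. The 5 classes held 76838598 UMIs, of which 52310 were Hox UMIs. Both epithelial classes drew mainly on Hoxb, fibroblasts and smooth muscle on Hoxa and Hoxc, and blood endothelium on Hoxb and Hoxd. Ciliated epithelium had 96.4% of its Hox UMIs from Hoxb in 2 proximal and 73.9% in 3 distal libraries (means). Smooth muscle had Hoxa at 28.6% and 44.9% and Hoxc at 41.4% and 46.0%, also in 2 proximal and 3 distal libraries. In non-ciliated epithelium the Hoxb cluster gave 94.2% ± 1.34 of the Hox UMIs in proximal libraries and 84.6% ± 4.00 in distal libraries (SD, n = 3 each), and Hoxa gave 0.896% ± 0.598 and 0.535% ± 0.0284. In fibroblasts Hoxa and Hoxc led, with Hoxa at 48.3% ± 13.03 and 42.6% ± 6.39 and Hoxc at 30.6% ± 13.1 and 35.8% ± 6.14 in proximal and distal libraries (SD, n = 3 each). Blood endothelium combined Hoxb, at 59.4% ± 4.52 in 2 proximal and 50.7% ± 3.12 in 3 distal libraries, with Hoxd, at 28.3% ± 4.23 and 31.7% ± 2.59.

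**Figure D1:**
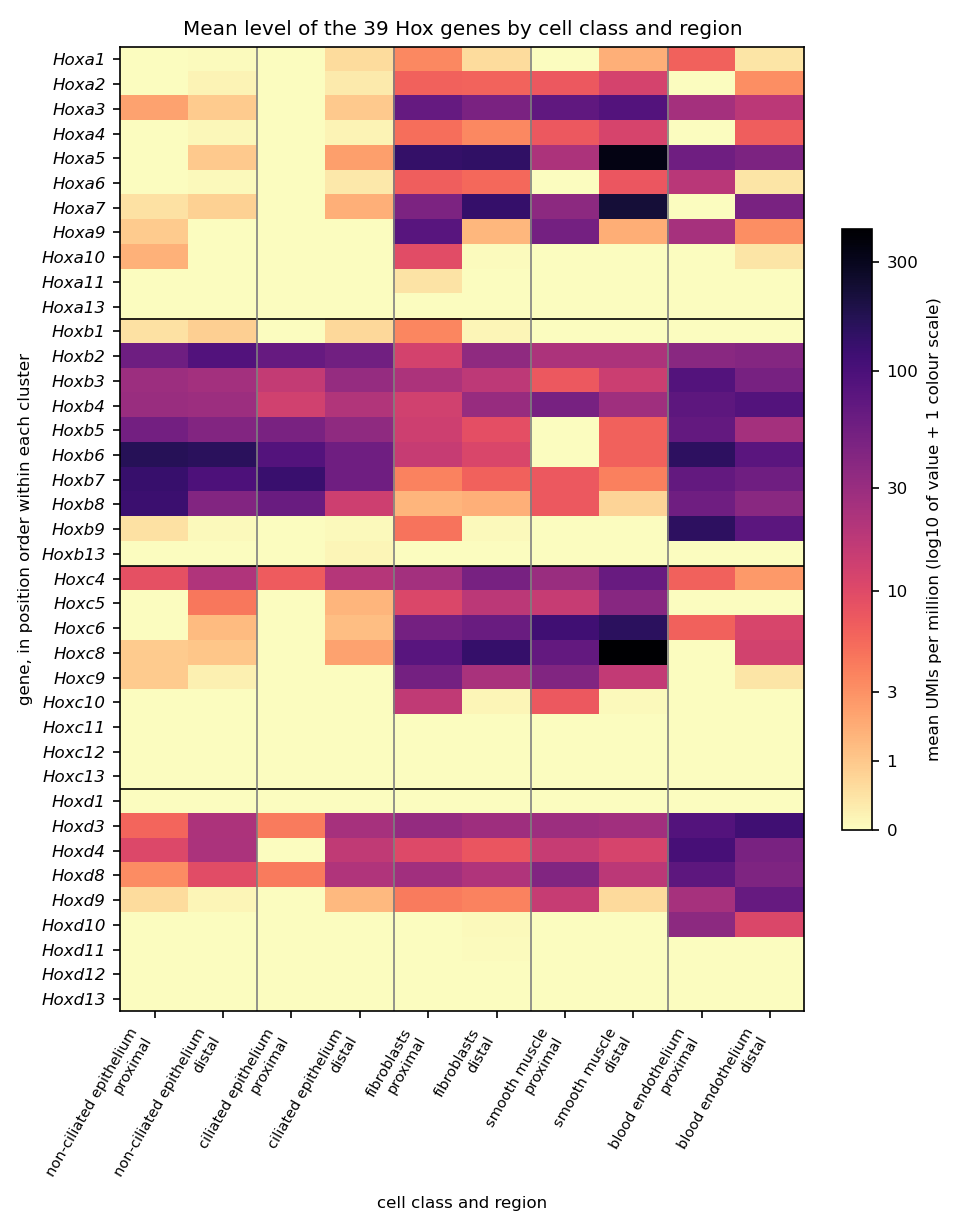
Mean CPM (colour on a log10 scale of the value plus 1) of the 39 Hox genes, in position order within each cluster (rows), for each class and region (columns, proximal left of distal). Epithelial columns are filled mainly at Hoxb2 to Hoxb8, fibroblast and smooth muscle columns at Hoxa3 to Hoxa7 and Hoxc4 to Hoxc9, and blood endothelial columns at Hoxb2 to Hoxb9 and Hoxd3 to Hoxd9.

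**Figure D2:**
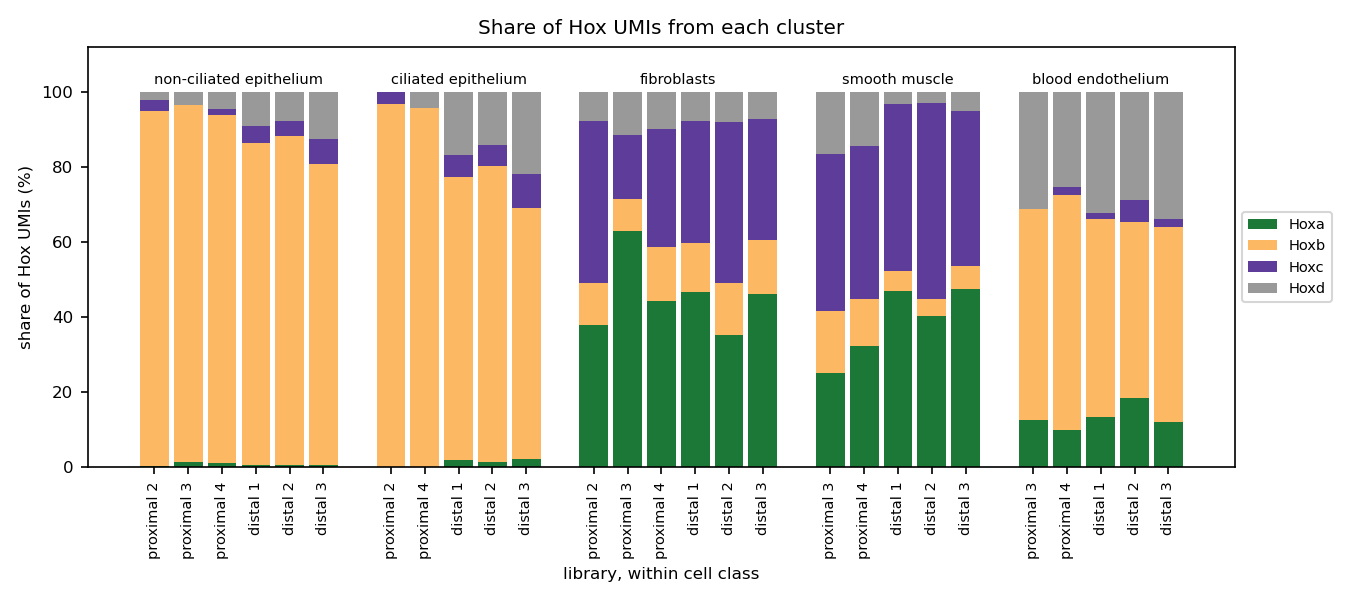
Share (%) of the Hox UMIs of a library that came from Hoxa, Hoxb, Hoxc and Hoxd, 1 bar per library, grouped by class with proximal libraries left of distal ones. Hoxb takes over 90% of the bar in proximal non-ciliated epithelium, and Hoxa with Hoxc takes most of it in fibroblasts and smooth muscle.

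In fibroblasts the called differences lay at the high-numbered end of 2 clusters. Hoxa9 and Hoxa10 of the Hoxa cluster and Hoxc9 and Hoxc10 of the Hoxc cluster were higher in proximal fibroblasts, while the genes at lower positions of both clusters did not pass the test. Of the 39 genes, 24 passed the filter on low counts, of which 4 were called higher and 0 lower by edgeR's quasi-likelihood test at an adjusted p of 0.05. Among all 13649 genes tested in fibroblasts, 3.06% were called, 2.12% higher and 0.938% lower. Of the 24, 8 had an unadjusted p under 0.05, against 16.5% of all genes. The 24 genes had a median log2 change of 0.30, against -0.03 over all genes tested. Hoxa9, Hoxa10 and Hoxc10 passed the filter through the proximal libraries, so they had to differ to be tested at all, and the count of called genes is a description.

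Hoxa9 had 78.9, 81.3 and 83.2 CPM in proximal fibroblasts 2, 3 and 4, against 1.91, 1.38 and 1.18 CPM in distal fibroblasts 1, 2 and 3. All 3 proximal libraries lay far above all 3 distal ones and, on the scaling of the fit, close to each other. Proximal 3 was the smallest sum, at 91638 UMIs, and its level rested on few Hoxa9 UMIs, seen in 8 of 130 cells. The log2 change was 5.73 ± 0.30 (SE), with an adjusted p of 9.77e-06 (edgeR), from 253 proximal and 36 distal UMIs. It was called under each of the 18 alternatives run for it, at log2 3.96 to 5.93.

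Hoxa10, whose protein patterns the uterus in the mouse, was much scarcer. It had 12.04, 9.04 and 7.45 CPM in the proximal libraries and 0, 0.0920 and 0 CPM in the distal libraries. The groups did not overlap, and the distal value rested on 1 UMI against 34 proximal UMIs. In proximal 3 the value was 1 UMI, so the separation of that library rests on 1 molecule. The pooled ratio between the regions was 259.6, with a 95% counting interval of 43.5 to 10549.6, and the adjusted p was 0.00131 (edgeR). Without proximal 2, which held 27 of the 34 UMIs, Hoxa10 did not pass the filter.

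Hoxc10, which is known from the lumbar spinal cord and hindlimb of the mouse, had 17.4, 9.04 and 23.6 CPM in proximal fibroblasts, against 0, 0.368 and 0 CPM in distal fibroblasts. Again the groups did not overlap, with 59 proximal UMIs and 4 distal UMIs, all 4 in distal 2. The value of proximal 3 was 1 UMI, so the separation of that library rests on 1 molecule. The log2 change was 6.65 ± 0.69 (SE), with an adjusted p of 0.00199 (edgeR). Hoxc9, its neighbour and a regulator of motor neuron identity in the thoracic spinal cord, differed less. It had 66.0, 36.1 and 55.9 CPM in proximal libraries and 29.3, 23.1 and 17.3 CPM in distal libraries, a log2 change of 1.31 ± 0.29 (SE) with an adjusted p of 0.0376 (edgeR). Hoxc9's groups did not overlap either, but its call was lost under 8 of 18 alternatives, among them DESeq2, the omission of proximal 3 or of any 1 distal library, and the restriction to shared fibroblast clusters. Its log2 change ran from 0.56 to 1.54 over these 18.

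**Figure D3:**
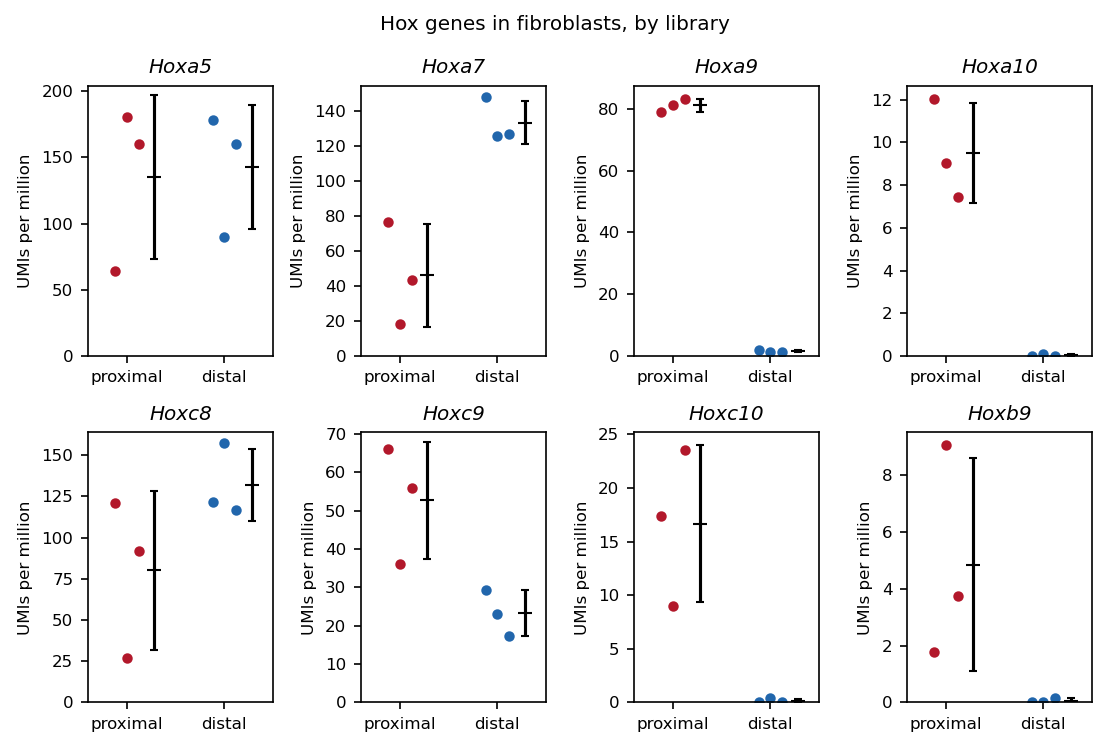
CPM of 8 Hox genes in fibroblasts, with 1 point per library (proximal red, left; distal blue, right) and the mean with its SD (n = 3 each) beside the points. Hoxa9 lies near 81.1 CPM in proximal and near 1.49 CPM in distal fibroblasts, Hoxa10 and Hoxc10 are near 0 in distal fibroblasts, and Hoxa7 lies lower in proximal ones.

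Hoxa7, the gene next to Hoxa9, lay the other way. It had 76.7, 18.1 and 43.5 CPM in proximal fibroblasts, against 148, 126 and 127 CPM in distal fibroblasts. The ranges did not overlap, but the change of -1.29 ± 0.34 (SE, log2) missed the threshold, with an adjusted p of 0.0714 (edgeR). DESeq2 called it, and so did edgeR without proximal 2. The other abundant fibroblast genes overlapped between the regions. Hoxa5, a regulator of lung and neck-region patterning in the mouse, had 64.2, 181 and 160.1 CPM in proximal libraries and 178, 89.9 and 160.2 CPM in distal ones. Hoxc8, a regulator of brachial motor neurons, had 121, 27.1 and 91.9 CPM in proximal libraries and 121, 157 and 117 CPM in distal ones. Hoxa5 ran high and low in both regions, whereas for Hoxc8 proximal 3 and 4 lay below every distal library and proximal 2 lay among them. Hoxc6 had 65.1, 18.1 and 75.7 CPM in proximal and 70.0, 63.7 and 52.4 CPM in distal libraries, and Hoxa3 had 41.9, 90.4 and 67.0 CPM in proximal and 59.1, 39.9 and 43.3 CPM in distal libraries. None of these 4 passed the test, with adjusted p-values of 0.507 to 0.999 (edgeR).

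The high-position genes of the other clusters were few in fibroblasts. Hoxb9 had 8 proximal UMIs and 1 distal UMI, a pooled ratio of 61.1 with a 95% counting interval of 8.19 to 2709.9, and did not enter the test. Hoxd9 was tested, with 8.03, 0 and 4.97 CPM in proximal libraries and 4.22, 3.77 and 3.55 CPM in distal ones, and its groups overlapped. Hoxa11 had 1 UMI, in proximal 4, and Hoxd10 and Hoxd11 had 2 UMIs and 1 UMI, all in distal 2. Positions 9 to 13 together took 24.6%, 22.9% and 19.9% of the Hox UMIs of proximal fibroblasts 2, 3 and 4, with exact 95% intervals of 22.5 to 26.7%, 13.7 to 34.4% and 17.1 to 23.0%. In distal fibroblasts 1, 2 and 3 the shares were 4.05%, 3.81% and 2.92%, with intervals of 3.59 to 4.57%, 3.41 to 4.24% and 2.44 to 3.45%. The intervals, which cover counting error only, of the 2 regions did not overlap, and this share was not tested.

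**Figure D4:**
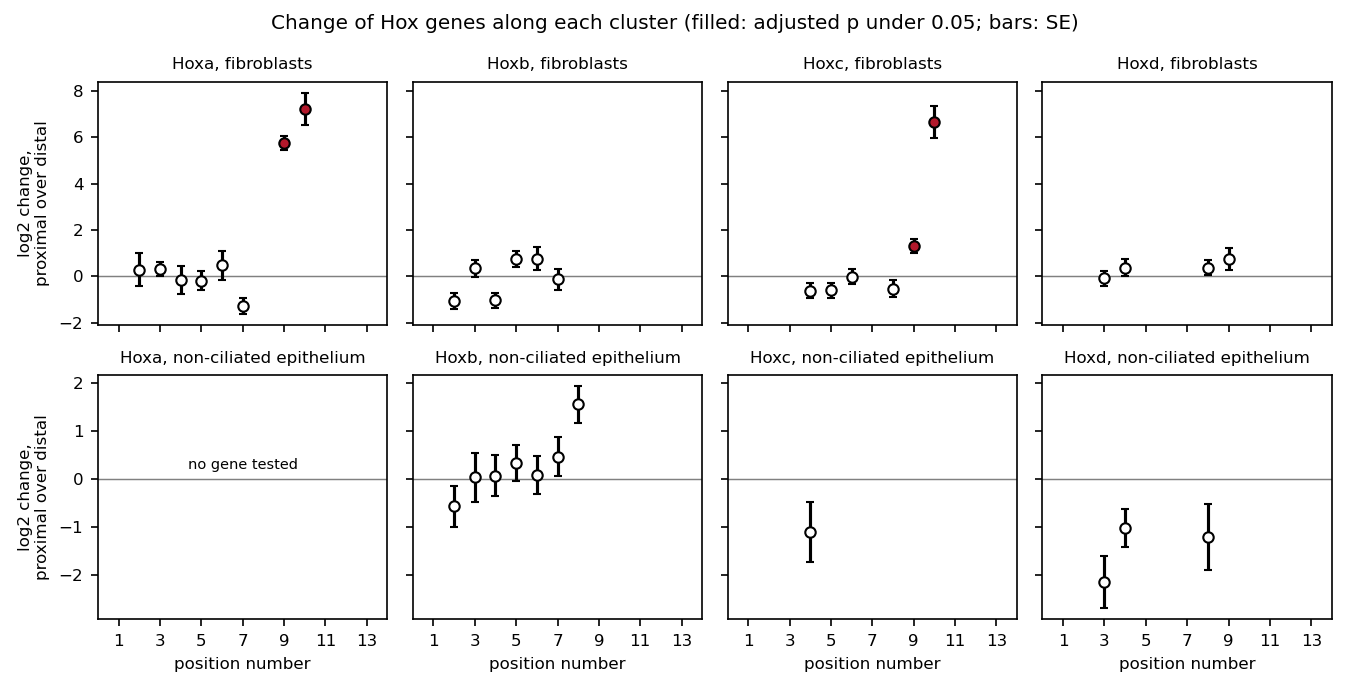
Log2 change of proximal over distal (y axis; bars show the SE) against position number (x axis) for each tested gene of the 4 clusters, in fibroblasts (top) and non-ciliated epithelium (bottom). Filled points passed the adjusted p threshold of 0.05, namely Hoxa9, Hoxa10, Hoxc9 and Hoxc10 in fibroblasts, and none in epithelium, where no Hoxa gene was tested.

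The fibroblast clusters found in both regions showed the same contrast in Hoxa9. In cluster C1, with 606 proximal and 1471 distal cells, Hoxa9 had 58.5, 88.9 and 86.3 CPM in proximal libraries 2, 3 and 4, against 4.66, 3.12 and 5.13 CPM in distal libraries 1, 2 and 3. Each proximal value in C1 exceeded each distal one. In cluster C13 the pooled level was 78.5 CPM in 151 proximal cells and 3.29 CPM in 331 distal cells, although proximal 4 had 0 Hoxa9 UMIs there in 27 cells. In cluster C0, with 51 proximal and 2126 distal cells, the pooled levels were 122 and 0.160 CPM. Cluster C17, mostly proximal, had 105 CPM in 259 proximal cells and 29.1 CPM in 17 distal cells, whereas cluster C4, with 1377 distal cells, had 0 CPM. With C1 alone, an alternative chosen after the data were seen, 2 Hox genes were called, Hoxa9 and Hoxa10, both higher. The clusters were made without Hox genes.

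Among cells, Hoxa9 UMIs were seen in 94 of 374, 8 of 130 and 57 of 611 proximal fibroblasts of libraries 2, 3 and 4, against 11 of 2312, 13 of 2378 and 3 of 2249 distal fibroblasts of libraries 1, 2 and 3. Median depths were 7026, 645.5 and 1069 UMIs in the proximal and 3229.5, 4985.5 and 2617 UMIs in the distal libraries. After each cell was thinned to 500 UMIs, the shares were 5.88%, 5.38% and 5.40% in proximal libraries and 0.173%, 0 and 0.0445% in distal libraries. The thinned shares of the proximal libraries lay close together, whereas the unthinned share was 25.1% in proximal 2, the deepest of the 3, against 6.15% and 9.33% in proximal 3 and 4. The unthinned distal shares were 0.476%, 0.547% and 0.133%. T and NK cells, taken as cells that should lack the gene, had 0 Hoxa9 UMIs among 399956 UMIs of 250 proximal cells and 0 among 502277 UMIs of 227 distal cells, which allows up to 7.50 and 5.97 CPM. Their median depths were 634.5 to 2584 UMIs in proximal and 1725 to 2075 UMIs in distal libraries. The proximal fibroblast level lay well above that limit.

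Markers of other cells differed between the fibroblast sums as well. The 9 T and NK markers summed to 9.73, 43.7 and 16.7 CPM in proximal libraries 2, 3 and 4, with 5, 1 and 4 of them seen, against 5.03, 2.74 and 2.72 CPM in distal libraries, with 4, 7 and 3 seen, so they were higher in every proximal sum, as Hoxa9 was. The T and NK cells themselves had no Hoxa9 UMI. The 8 fibroblast markers were also higher in every proximal sum, at 24379 to 28942 CPM, against 19650 to 20889 CPM in distal sums. The 10 epithelial markers overlapped and summed to 41.2 to 267 CPM in proximal libraries, with 5 to 9 of them seen, and to 234 to 604 CPM in distal libraries, with all 10 seen. The 11 ciliated markers summed to 2.33 to 21.8 CPM in proximal and 22.7 to 79.7 CPM in distal libraries, and the 6 pericyte markers to 32.7 to 58.5 and 82.3 to 109 CPM. The 8 smooth muscle markers overlapped, at 743 to 1165 CPM in proximal and 808 to 1165 CPM in distal libraries. The part of such RNA in the Hox differences was not tested. The share of cells in each fibroblast cluster also differed between the regions.

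Outside fibroblasts Hoxa9 UMIs were few, and ciliated cells had 0 in both regions. Smooth muscle had 7 Hoxa9 UMIs in proximal libraries, all in proximal 4, and 15 in distal libraries. Their pooled levels were 84.96 CPM in proximal smooth muscle, with an exact 95% interval of 34.2 to 175 CPM, and 1.97 CPM in distal smooth muscle, with an interval of 1.10 to 3.25 CPM. The interval of the proximal level included the pooled 74.8 CPM of proximal fibroblasts. The pooled ratio between the regions, which uses the scaling of the fit and not these pooled levels, was 33.5 with a 95% counting interval of 11.5 to 87.2. In that proximal 4 sum the 8 fibroblast markers reached 3654 CPM, with 412 CPM in the proximal 3 sum, against 1793 to 2639 CPM in distal smooth muscle, and their part in the count was not tested. Blood endothelium had 2 proximal and 4 distal UMIs, a ratio of 6.58 with an interval of 0.595 to 45.9 that includes no difference. Non-ciliated epithelium had 2 Hoxa9 UMIs in proximal libraries and 0 in distal libraries, and Hoxa10 likewise had 2 and 0. None of these passed the filter of the edgeR test, and DESeq2 called Hoxa9 higher in smooth muscle.

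Non-ciliated epithelium had no called Hox gene, but its Hoxb8 and Hoxd3 lay near the threshold in opposite directions. Of the 39 genes, 11 passed the filter, and 0 were called, while 3.31% of 12827 genes tested were called, 2.44% higher and 0.865% lower. At an unadjusted p under 0.05 there were 3 of the 11, against 17% of all genes. DESeq2 called 2 of the Hox genes among 1158 genes in all, and without proximal 2 the edgeR test called 4, of which 1 was higher and 3 lower, among 3301 genes in all, against 424 genes with all libraries. The 11 had a median log2 change of 0.04, against -0.08 over all genes tested.

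Hoxb8, known in the mouse from microglia and grooming behaviour, had 149.8, 113 and 106 CPM in proximal epithelium 2, 3 and 4, against 44.5, 51.1 and 30.8 CPM in distal epithelium 1, 2 and 3. All proximal libraries lay above all distal ones. The log2 change was 1.55 ± 0.38 (SE), with an adjusted p of 0.0560 (edgeR). Hoxd3 had 3.22, 10.9 and 4.03 CPM in proximal and 22.8, 15.7 and 27.99 CPM in distal epithelium, with no overlap, a log2 change of -2.14 ± 0.54 (SE) and an adjusted p of 0.0621 (edgeR). Hoxd4, the next gene of that cluster, had 9.66, 7.26 and 14.8 CPM in proximal and 24.6, 19.5 and 24.1 CPM in distal epithelium, with an adjusted p of 0.215 (edgeR).

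The most abundant Hox genes of the epithelium were Hoxb6, Hoxb7, Hoxb8, Hoxb2 and Hoxb5, and apart from Hoxb8 they overlapped between the regions. Hoxb6 had 209, 113 and 171 CPM in proximal and 172, 164 and 132 CPM in distal libraries. Hoxb7 had 182, 116 and 91.4 CPM in proximal and 91.0, 118 and 74.4 CPM in distal libraries. Hoxb2, which patterns the hindbrain, had 91.8, 32.7 and 49.7 CPM in proximal and 104, 75.4 and 84.1 CPM in distal libraries. Hoxb5 had 33.8, 58.1 and 67.2 CPM in proximal and 46.1, 38.8 and 41.1 CPM in distal libraries. Along the cluster, the log2 changes of Hoxb2 to Hoxb7 lay between -0.56 and 0.46, and only Hoxb8 among these 7 exceeded 1. Hoxc5 had 0 UMIs in proximal and 120 UMIs in distal epithelium, at least 2.71-fold lower when 3 counts over the proximal group are taken as the floor.

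**Figure D5:**
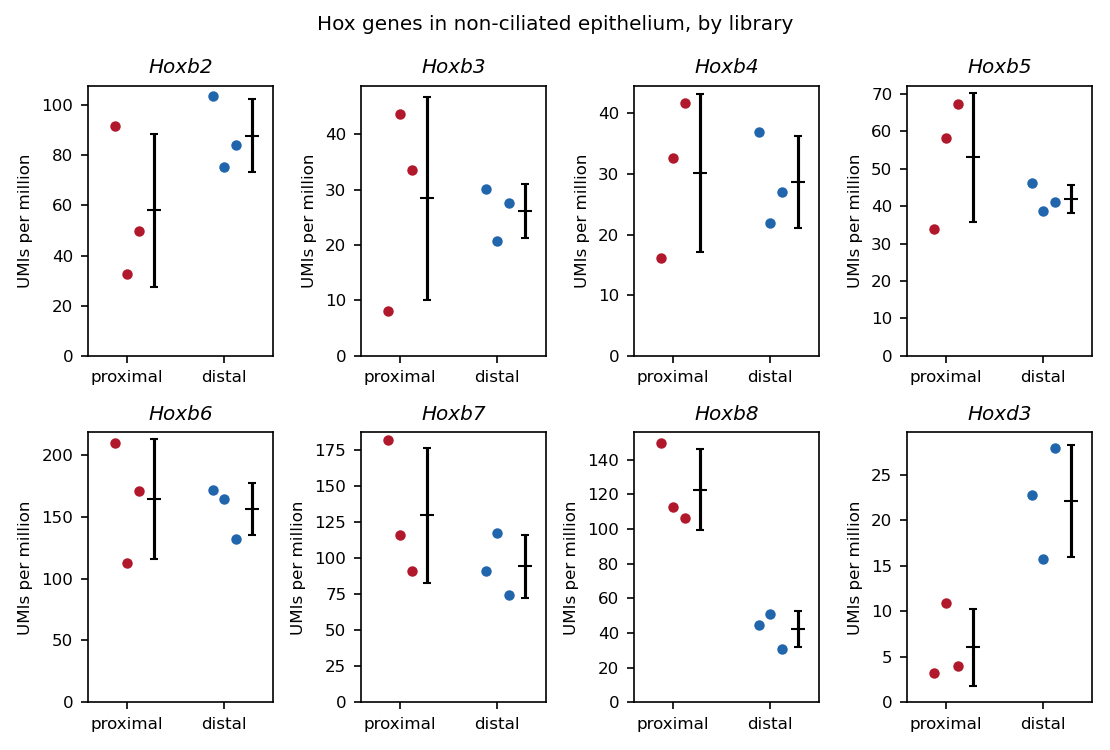
CPM of Hoxb2 to Hoxb8 and of Hoxd3 in non-ciliated epithelium, with 1 point per library (proximal red, left; distal blue, right) and the mean with its SD (n = 3 each). The Hoxb8 points of the proximal libraries, at 106 CPM and above, lie over all distal points, the Hoxd3 points lie under them, and Hoxb6 and Hoxb7 overlap.

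Hoxb8 also varied among epithelial clusters. In cluster E0 its pooled level was 82.3 CPM in 98 proximal cells and 46.7 CPM in 845 distal cells. In cluster E2 it was 102.4 CPM in 126 proximal cells and 78.4 CPM in 761 distal cells, and in E9 it was 263 CPM in 11 proximal cells and 87.2 CPM in 224 distal cells. In E5 it was 39.3 CPM in 21 proximal cells and 35.5 CPM in 599 distal cells, and in E7 it was 14.7 CPM, from 1 UMI, in 15 proximal cells and 31.0 CPM in 296 distal cells. The pooled proximal level was thus above the distal one in 4 of these 5 clusters and below it in E7. It rested on 10, 33, 8, 5 and 1 proximal UMIs in E0, E2, E9, E5 and E7. All 10 in E0, 29 of 33 in E2 and all 8 in E9 came from proximal 2. In E0 proximal 4 had 0 UMIs in 19 cells, so the tally rests mostly on 1 proximal library. Clusters E14 and E11, with 89 and 160 proximal cells and too few distal ones for a value, had 194.9 and 141 CPM. Cluster E1, with 900 distal cells, had 21.0 CPM of Hoxb8, the lowest pooled distal level, and 36.7 CPM of Hoxd3, the highest. Hoxd3 in the same shared clusters rested on 0 to 2 proximal UMIs each. Its pooled level was 16.5 CPM in proximal and 12.4 CPM in distal cells of E0, 3.10 and 5.00 CPM in E2, 7.86 and 22.5 CPM in E5, 0 and 22.4 CPM in E7, and 0 and 3.11 CPM in E9. Clusters E11 and E14 held 160 and 89 of the 532 proximal cells, and E1 held 900 of the 3959 distal cells. The 10 epithelial markers summed to 20493, 8213 and 10731 CPM in proximal epithelium, against 25017, 24577 and 18046 CPM in distal epithelium, and their part in the Hox values was not tested.

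Ciliated epithelium entered with 2 proximal libraries of 23 and 33 cells, and had no called gene of any kind: 0 of 11 Hox genes tested and 0% of 13023 genes (edgeR). At an unadjusted p under 0.05 there were 3 Hox genes and 1848 genes in all, and DESeq2 called 1 Hox gene and 405 genes. Hoxb8 had 71.5 and 51.0 CPM in proximal libraries 2 and 4, against 12.4, 15.2 and 13.1 CPM in distal libraries. The groups did not overlap, and the log2 change was 2.13 ± 0.53 (SE), with an adjusted p of 0.136 (edgeR). The 11 ciliated markers summed to 8277 and 3386 CPM in these proximal sums, against 8153 to 11492 CPM in distal sums, and the 10 epithelial markers to 4788 and 10057 CPM, against 5804 to 8139 CPM. Non-ciliated epithelium had pooled Hoxb8 levels of 126 CPM in proximal and 38.7 CPM in distal cells. Of the ciliated cells, 21 of 23 in proximal 2 lay in cluster E12 and 29 of 33 in proximal 4 in cluster E6, while distal cells lay mostly in E3 and E4. The part of these differences in the Hoxb8 values was not tested. Hoxb7 had 143 and 110.4 CPM in proximal and 48.4, 66.6 and 54.4 CPM in distal libraries, with an adjusted p of 0.247 (edgeR). Hoxb6 had 71.5 and 101.9 CPM in proximal and 48.4, 71.98 and 46.4 CPM in distal ciliated cells. Hoxb2 had 114 and 16.99 CPM in proximal and 55.1, 55.7 and 55.6 CPM in distal ones, and Hoxb5 had 28.6 and 68.0 CPM in proximal and 33.1, 47.6 and 24.4 CPM in distal ones. Hoxb2, Hoxb5 and Hoxb6 overlapped between the regions, and they rested on 10, 10 and 17 proximal UMIs. Hoxd4 had 0 proximal UMIs and 167 distal UMIs, at least 1.05-fold lower by the same floor.

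In smooth muscle Hoxa5, Hoxa7 and Hoxc8 were lower in proximal libraries, but the 2 regions held different kinds of smooth muscle. Of the 39 genes, 12 were tested, and 0 were called higher and 3 lower, while 13% of 9234 genes were called, 4.89% higher and 8.08% lower. The proximal cells, 29 and 47 in number, lay mostly in cluster M3, whose 10 leading genes include Pln and Rgs5, with 27 and 38 of them. Distal cells lay mostly in clusters whose 10 leading genes include Actg2, a gene of visceral muscle. Actg2 is not among those of M3, whereas Myh11 is among the leading genes of M3 and of these clusters alike.

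Hoxa5 had 0 and 45.1 CPM in proximal smooth muscle 3 and 4, against 402, 243 and 354 CPM in distal smooth muscle. Its log2 change was -3.35 ± 0.68 (SE), with an adjusted p of 3.37e-05 (edgeR), from 3 proximal UMIs, and the pooled ratio was 0.0877 with a 95% counting interval of 0.0181 to 0.257. The groups did not overlap. Hoxa7 had 42.0 and 30.1 CPM in proximal and 265, 230.1 and 185 CPM in distal libraries, also from 3 proximal UMIs, with a pooled ratio of 0.134 (95% counting interval 0.0276 to 0.393) and an adjusted p of 0.00150 (edgeR). Hoxc8 had 0 and 135 CPM in proximal and 451, 452 and 357 CPM in distal libraries, a log2 change of -2.13 ± 0.52 (SE) with an adjusted p of 0.00106 (edgeR). All 3 genes were thus lower in both proximal libraries than in every distal library. They passed the filter through the distal libraries, where they were high. How many of all tested genes lay apart in this way was not counted, so the separation is a description. Hoxa7 lost its call without proximal 4 (adjusted p of 0.169) and Hoxc8 without proximal 3 (edgeR).

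Within cluster M3 alone these gaps were smaller or turned round, on few UMIs. Hoxa5 had pooled levels of 40.5 CPM in 65 proximal cells and 24.4 CPM in 162 distal cells of M3, from 3 and 11 UMIs. Hoxa7 had 40.5 and 106 CPM, from 3 and 48 UMIs, and Hoxc8 81.0 and 66.5 CPM, from 6 and 30 UMIs. The other distal smooth muscle clusters had 249 to 522 CPM of Hoxa5. With M3 alone none of the 3 genes passed the filter, so they were not tested there, and region and kind of smooth muscle cannot be told apart in these 3 calls. Hoxc6 had 168 and 60.1 CPM in proximal and 195, 150.04 and 119 CPM in distal smooth muscle, Hoxa3 had 84.0 and 60.1 CPM in proximal and 103, 65.0 and 89.0 CPM in distal smooth muscle, and neither passed the test.

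Blood endothelium had 0 of 6 tested Hox genes called, while 8.61% of 4090 genes were called, 3.94% higher and 4.67% lower (edgeR). Of the 6, 2 had an unadjusted p under 0.05, against 26.5% of all genes. The proximal sums of this class held 34 and 57 cells. Hoxb6 had 147 and 151 CPM in proximal and 79.3, 76.4 and 83.0 CPM in distal endothelium, and Hoxd4 had 110.4 and 101 CPM in proximal and 48.5, 53.5 and 44.3 CPM in distal endothelium. Both sets of values were apart, from 16 and 11 proximal UMIs, with adjusted p-values of 0.166 and 0.161 (edgeR). Hoxb9 had 184 and 114 CPM in proximal and 84.8, 53.5 and 94.1 CPM in distal endothelium. Hoxd3 had 110.4 and 63.1 CPM in proximal and 122, 115 and 108 CPM in distal endothelium, and Hoxb4 had 73.6 and 75.7 CPM in proximal and 116, 45.9 and 96.8 CPM in distal endothelium. Hoxd3 and Hoxb4 overlapped between the regions, and Hoxb9 did not, with an adjusted p of 0.355 (edgeR). Hoxa7 had 0 proximal and 70 distal UMIs, at least 1.77-fold lower by the same floor. Positions 9 to 13 took 28.1% and 12.1% of the endothelial Hox UMIs in proximal libraries, against 18.1%, 10.6% and 22.9% in distal libraries. Here the regions overlapped. The share lay apart in smooth muscle, at 8.33% and 23.2% in proximal against 1.30%, 1.43% and 0.916% in distal libraries. It rested there on 1 and 13 proximal UMIs. In non-ciliated epithelium it lay apart too, at 0.221%, 0.680% and 1.33% against 0.0976%, 0.0338% and 0.0647%, on 1, 1 and 6 proximal UMIs. In ciliated epithelium it was 0 in both proximal libraries and 0.352% to 0.540% in distal ones. None of these shares was tested.

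Summed over the 5 classes, 26 of the 39 genes were tested, and 4 were called higher and 0 lower. Among all 18011 genes tested, 3.07% were called, 1.44% higher and 1.63% lower. Hoxa9, Hoxa10 and Hoxc10 again passed the filter through the proximal libraries, so here too the count of called genes is a description. Hoxa9 averaged 41.9 ± 20.1 CPM in proximal and 0.791 ± 0.286 CPM in distal sums, with an adjusted p of 0.0148 (edgeR). Hoxa10 had 36 proximal and 2 distal UMIs, a pooled ratio of 239 with a 95% counting interval of 61.6 to 2052 and an adjusted p of 0.0197 (edgeR). Hoxc10 averaged 8.89 ± 5.98 and 0.0836 ± 0.114 CPM, with an adjusted p of 0.0269 (edgeR), and Hoxb8 averaged 52.3 ± 17.8 and 17.6 ± 1.57 CPM, with an adjusted p of 0.0419 (edgeR, SD, n = 3 each). For each of these 4 genes all proximal sums lay above all distal sums. How many of all tested genes did so was not counted, so this separation is a description. Leaving out any 1 distal library ended every one of the 4 calls, and so did leaving out proximal 4. Without proximal 3 only Hoxa9 was called, and without proximal 2 there were 7 calls, 3 higher and 4 lower. These 7 were not set against the number of all genes called in that fit. Hoxb8's change reversed to -0.24 with shared clusters alone. The sums mix the classes in each library's own proportions, which differ between the regions. The 5 most abundant genes of the sums were not called. Hoxb6 had 56.4, 81.8 and 95.8 CPM in proximal and 74.9, 60.1 and 67.8 CPM in distal sums, Hoxc8 had 95.8, 6.63 and 45.5 CPM and 113, 107 and 49.3 CPM, and Hoxa5 had 50.7, 48.7 and 72.3 CPM and 121, 60.8 and 61.3 CPM. Hoxb7 had 49.3, 75.2 and 48.2 CPM in proximal and 42.3, 44.1 and 45.4 CPM in distal sums, without overlap, and Hoxa7 had 60.6, 6.63 and 20.3 CPM in proximal and 89.1, 81.3 and 43.4 CPM in distal sums.

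Whether the change between the regions differed between fibroblasts and non-ciliated epithelium was tested as an interaction. None of 25 tested Hox genes passed, while 1.81% of 16926 genes did, 1.21% in the positive and 0.609% in the negative direction (edgeR). Hoxd3 came closest, with a fibroblast change 2.43 ± 0.61 (SE, log2) above that in epithelium and an adjusted p of 0.0553 (edgeR). Without proximal 2, 1 Hox gene passed. For Hoxa9 the difference was 0.44 ± 0.51 (SE, log2), from 2 epithelial UMIs in all, so a difference of the 2 classes in their Hoxa9 change was not shown. Hoxb8, at -1.40 ± 0.78 (SE, log2), also did not pass.

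The classes were compared within the 3 distal libraries, each library holding both classes. Against non-ciliated epithelium, distal fibroblasts had 14 Hox genes higher and 7 lower of 23 tested, where 67.6% of 17026 genes were called. Hoxa7 had the largest rise, with 122 ± 10.2 CPM in fibroblasts and 0.757 ± 0.191 CPM in epithelium, a log2 change of 7.27 ± 0.26 (SE) and an adjusted p of 5.14e-11 (edgeR). Hoxb8 had the largest fall, with 1.56 ± 0.411 CPM in fibroblasts and 40.4 ± 9.52 CPM in epithelium (SD, n = 3 each), a log2 change of -4.74 ± 0.27 (SE). All 7 tested Hoxa genes, and Hoxc6, Hoxc8 and Hoxc9, exceeded a log2 change of 5, whereas Hoxb4 and Hoxd3 did not pass. Among the Hoxa genes, Hoxa9, Hoxa6, Hoxa4 and Hoxa2 rested on 0, 1, 2 and 4 epithelial UMIs, so the sizes of their changes are uncertain.

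Ciliated against non-ciliated epithelium gave 1 Hox gene higher and 7 lower of 14 tested, where 55.7% of 16153 genes were called. Hoxd8 was the higher one, with 19.0 ± 3.66 CPM in ciliated and 9.67 ± 2.85 CPM in non-ciliated cells, a log2 change of 0.99 ± 0.22 (SE) and an adjusted p of 0.00205 (edgeR). Hoxb8 fell most, to 11.9 ± 1.35 CPM in ciliated cells, against 43.0 ± 11.4 CPM in non-ciliated cells (SD, n = 3 each), a log2 change of -1.78 ± 0.21 (SE). Hoxc5 came next, at 1.38 ± 0.987 and 4.58 ± 2.50 CPM, and then Hoxb6, at 49.1 ± 12.9 and 159 ± 23.1 CPM. Without distal 3, 5 Hox genes were called in place of 8.

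Smooth muscle against fibroblasts gave 8 higher and 6 lower of 23 tested, where 43.4% of 15295 genes were called. Hoxa4 had the largest rise, with 9.68 ± 2.38 CPM in smooth muscle and 3.34 ± 1.00 CPM in fibroblasts, a log2 change of 1.65 ± 0.32 (SE), and Hoxc8 reached 349 ± 47.7 CPM against 125 ± 21.3 CPM in fibroblasts (SD, n = 3 each). Hoxd9 had the largest fall, at -1.98 ± 0.57 (SE, log2). Without distal 1, 8 Hox genes were called in place of 14, and Hoxa4 was not among them. Hoxc9 was the only Hoxc gene among the 6 that fell, with 13.4 ± 3.12 CPM in smooth muscle and 22.1 ± 5.71 CPM in fibroblasts.

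Blood endothelium against fibroblasts gave 12 higher and 9 lower of 24 tested, where 42.3% of 14358 genes were called. Hoxb9 had the largest rise, with 58.4 ± 18.1 CPM in endothelium and 0.0582 ± 0.101 CPM in fibroblasts (SD, n = 3 each), from 1 fibroblast UMI. Hoxc5 had the largest fall, with 0 UMIs in endothelium and 18.6 ± 2.67 CPM in fibroblasts. Hoxb3 to Hoxb9 were all higher, as were Hoxd3, Hoxd4, Hoxd8, Hoxd9 and Hoxd10, and all 5 tested Hoxc genes were lower. Hoxd10 had 10.1, 0 and 14.9 CPM in endothelium of distal 1, 2 and 3, from 19 UMIs, and 0, 0.186 and 0 CPM in fibroblasts, from 2 UMIs, so in distal 2 it was seen in fibroblasts and not in endothelium.

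Other genes of Hox regulation were read from lists chosen with earlier results of these data known. In fibroblasts none of them was called: 0 of 11 tested Pbx, Meis, Pknox and Tgif cofactors, 0 of 21 Polycomb and Trithorax regulators, 0 of 5 retinoic acid receptors, 0 of 6 non-coding genes of the Hox clusters and 0 of 10 Müllerian duct patterning genes. In non-ciliated epithelium, where 3.31% of all genes were called, 4 were called. Wnt7a, a ligand that keeps Hoxa genes on in the mouse Müllerian duct, was higher, with 61.7 ± 52.3 CPM in proximal and 0.525 ± 0.393 CPM in distal epithelium, a log2 change of 6.69 ± 0.92 (SE). Msx1, a homeobox gene, was higher by 2.38 ± 0.46, and Nr2f1, a nuclear receptor, and Tgif2, a homeodomain repressor, were lower at -2.90 ± 0.56 and -2.68 ± 0.54 (SE, log2), with adjusted p-values of 0.00866 to 0.0306 (edgeR). Wnt7a was uneven among the proximal libraries, as its SD shows. Cdx and Evx genes were tested in no class. In smooth muscle, where 13% of all genes were called, the cofactors Meis1 and Meis2 were called lower, 1 of 20 chromatin regulators was higher (Kdm6b), and of 8 Müllerian genes 1 was higher (Bmp2) and 1 lower (Wnt5a). In blood endothelium, where 8.61% of all genes were called, of 3 Müllerian genes 1 was higher (Nr2f2) and 1 lower (Lef1). In ciliated epithelium no listed gene was called, and in the sum of the 5 classes, where 3.07% of all genes were called, 1 of 14 Müllerian genes, Wnt7a, was higher. Counts of a few genes per list were not compared with these shares, and nothing is read from them about the lists.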

How the data were processed

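Single-cell RNA of 3 proximal and 3 distal uterine tube libraries was analysed from the deposited UMI counts per gene and barcode. The counts were made with Cell Ranger 7.0.0 per the file headers, whereas version 6.1.2 and mm39 are given per the submitters' processing notes. The annotation is not given in the sources used here. Libraries pool tissue of several mice, and whether mice are shared between libraries is not given, so p-values measure the spread between these libraries.

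Of 20731 barcodes, 1447 had under 500 UMIs, under 250 genes or over 20% mitochondrial counts and were left out, and the 818 barcodes most like simulated doublets were removed (0.8% per 1000 barcodes). The 18466 kept cells were clustered with Scanpy 1.11.5 and leidenalg 0.10.2 from 2000 variable genes and 30 principal components, without Hox genes, and 27 clusters were named from marker lists, except 1 left unnamed. UMIs were summed per library and class, with at least 10 cells, and tested with edgeR 4.0.16 (R 4.3.3; TMM scaling, filterByExpr with a minimum count of 10, quasi-likelihood test, Benjamini-Hochberg adjustment over all genes tested, threshold 0.05). CPM are on the scaling of each fit, whereas pooled levels, marker sums and levels within cell clusters are UMIs over all UMIs. Pooled ratios between the regions use the scaling of the fit. DESeq2 1.42.0, other scalings, filters, cell choices, replicate blocks and the omission of each library were tried as alternatives. Ratios of pooled counts and shares carry exact 95% intervals that cover counting error only.

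On simulated counts, with 13042 fibroblast genes in the fit, 90.1% of the 91 tested genes changed by a log2 of 2 were recovered. The same share was 62.1% of 95 such genes among 12202 in non-ciliated epithelium, and 31.1% of 90 among 8110 in smooth muscle. The changed genes were drawn at random, and the simulated spread followed the level of a gene alone. These shares therefore do not give the recovery of scarce Hox genes.

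The Hox genes and the lists of other genes were chosen with earlier results of these data known. Some results for cofactors in smooth muscle and blood endothelium are not reported here. Values are given for every Hox gene called between regions and for the 5 with the highest mean level in a class, and as mean and SD for the largest called change in each direction between classes. Hoxa11, Hoxb9, Hoxd3, Hoxd4, Hoxd9, Hoxd10, Hoxd11 and the genes seen in 1 region only were named after their values were seen wherever this rule does not name them. Promoter sequences came from RefSeq (GRCm38.p6), a build other than that of the counts.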

Additional observations from a re-analysis of the deposited data

How the results depend on the processing

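In fibroblasts Hoxa9 was called under all 18 alternatives. Hoxa10 and Hoxc10, which had to differ to be tested, passed the filter and were called under 15 and 16 of them, and Hoxa10 was not tested without proximal 2, with distal sums thinned or with cells of at least 1000 UMIs. Except where a gene was not tested, the cause of each change below was not tested. The 4 fibroblast calls became 8 with no filter, 2 with distal sums thinned, 2 with cells of at least 1000 UMIs and 2 in cluster C1 alone, which was chosen after seeing the data, and ran from 3 to 5 with 1 library left out. Non-ciliated epithelium had 1 call with library totals, 2 with DESeq2, 2 with no filter and 0 to 4 with 1 library left out, and ciliated epithelium had 1 with DESeq2. Smooth muscle had 0 calls with distal sums thinned, where Hoxa5 and Hoxa7 did not pass the filter and Hoxc8 had an adjusted p of 0.0753 (edgeR), and 0 in shared clusters, where none of the 3 passed it. The sum of the 5 classes had 1 call thinned, 1 with cells of at least 1000 UMIs and 0 to 7 with 1 library left out, and Hoxb8 there reversed to -0.24 (log2) in shared clusters. Ciliated against non-ciliated epithelium gave 5 calls with DESeq2 and 5 to 9 with 1 library left out, and smooth muscle against fibroblasts gave 8 with DESeq2, 9 with no replicate block and 8 to 16 with 1 library left out. The interaction gave 1 call with no filter and 0 to 1 with 1 library left out. The counts of this paragraph are given without the number of all genes called in the same fits.

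Proximal and distal libraries share group numbers in their titles, other numbers in their descriptions, and no source says that a number marks shared mice. Deviations correlated at 0.37 for libraries numbered 2 and 0.12 for those numbered 3 in fibroblasts, and at 0.57 and 0.33 in non-ciliated epithelium. Pairs with unlike numbers ran from -0.23 to 0.14 in fibroblasts and from -0.54 to 0.38 in non-ciliated epithelium. The pair numbered 2 thus had the highest correlation in both classes, whereas the pair numbered 3 did not stand out in either. With the replicate block by description number, non-ciliated epithelium had 2 calls, and with a block term for group 2 it had 3 and fibroblasts had 7. Blocks by number could not be fitted in smooth muscle and blood endothelium, nor by title number in ciliated epithelium.

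Counted from position 10 in place of 9, the mean share of Hox UMIs was 3.45% in proximal and 0.0322% in distal fibroblasts, 0.893% and 0.00406% in smooth muscle, 3.13% and 1.19% in blood endothelium, 0 and 0.0327% in ciliated and 0.300% and 0 in non-ciliated epithelium. With cells of at least 1000 UMIs it was 28.3% from position 9 in proximal fibroblasts. Depth limits proximal smooth muscle, ciliated cells and endothelium most, where 1 UMI is 12.6 CPM or more in some libraries, so a level of 0 there does not show absence.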
